A study of Mus musculus with 16 samples.

Results

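Calreticulin and 9 further chaperones and folding enzymes of the endoplasmic reticulum (ER) were followed in leukemic and host cells from leukemic bone marrow. The 10 genes (Calr, Canx, Hspa5, Hsp90b1, Pdia3, Pdia4, Pdia6, Hyou1, Sdf2l1 and Dnajb9) were taken by gene symbol, and all of them were present among the 15080 genes of the tumor table and the 13344 genes of the stroma table. Wild-type (WT) C57BL/6J mice and IL6KO mice of the same strain, which lack interleukin-6 (IL-6 KO below), received 500000 BCR-ABL+, Arf-/- B-cell acute lymphoblastic leukemia (B-ALL) cells marked with mCherry through the tail vein at 6 to 8 weeks of age. On day 8, with no drug given to any mouse, red-cell-lysed bone marrow was sorted into mCherry+ cells (tumor) and mCherry- cells (stroma, here meaning every host cell left in the marrow), and RNA was sequenced in 4 libraries per genotype and compartment, 16 in all. The same leukemia line, a single one, went into both genotypes, so only the host lacked IL-6. How many animals went into a library was not stated, and Il6 was not analysed here.

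Secreted and membrane proteins fold in the ER, where the Hsp70-type chaperone BiP (Hspa5) and the Hsp90-type chaperone GRP94 (Hsp90b1) hold unfolded chains, the lectins calnexin (Canx) and calreticulin (Calr) hold chains that carry glucose-tipped glycans, and protein disulfide isomerases (Pdia3, Pdia4, Pdia6) form and reshuffle disulfide bonds. When unfolded chains build up, the sensors ATF6, IRE1 and PERK start the unfolded protein response, which raises transcription of most of these genes. Calreticulin has another known role: in dying cancer cells it can reach the cell surface, where phagocytes recognize it, and surface calreticulin serves as a mark of immunogenic cell death. RNA levels do not measure that surface protein.

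The promoters are shown for a sequence element that part of the members hold. Since the genes were chosen as ER chaperones, how often they hold an ER stress element is a description and not a test. RefSeq promoter sequences (GRCm38.p6, 250 bases before to 50 bases after each start site) matched 9 of the 10 genes by symbol, with no match for Hyou1. The ER stress response element, searched as CCAAT and CCACG with 9 bases of any kind between them on both strands, was present in 5 of the 9, and in 39 of all 32851 promoters of the same length (0.119%). Its fixed letters are in capitals below, with 20 bases on either side, 5′ to 3′ along the gene's strand. The element of Calr and the downstream element of Hsp90b1 lie on the opposite strand, so that their capitals read CGTGG and ATTGG.
Calr, chr8:84847055-84847113, minus strand: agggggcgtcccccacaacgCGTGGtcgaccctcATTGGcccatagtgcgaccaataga
Canx, chr11:50325780-50325838, minus strand: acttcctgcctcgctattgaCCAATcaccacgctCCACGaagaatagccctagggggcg
Hspa5, chr2:34772005-34772063, plus strand: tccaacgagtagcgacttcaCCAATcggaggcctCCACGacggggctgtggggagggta
Hsp90b1 (upstream), chr10:86705618-86705676, minus strand: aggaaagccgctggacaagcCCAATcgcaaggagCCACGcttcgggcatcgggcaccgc
Hsp90b1 (downstream), chr10:86705513-86705571, minus strand: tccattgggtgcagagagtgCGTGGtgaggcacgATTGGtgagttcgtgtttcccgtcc
Pdia6, chr12:17266471-17266529, plus strand: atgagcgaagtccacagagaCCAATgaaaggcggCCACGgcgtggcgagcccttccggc

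Counted from the start site, the element began at -162 in Calr, -145 in Canx, -65 in Hspa5, -212 and -107 in Hsp90b1 and -98 in Pdia6. Pdia3, Pdia4, Sdf2l1 and Dnajb9 held no exact match in this window. For Dnajb9 the window lies wholly inside the gene as GENCODE annotates it, so no base before that annotated start was searched. The related ERSE-II, searched as ATTGG and CCACG with 1 base between them on both strands, was in 0.0365% of promoters and in no member, and its CCACG can overlap that of the longer element. These matches describe letters and say nothing of a factor bound there.

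Depth, as estimated here, differed between the genotypes in tumor. The study's methods give a lower depth per sample than the estimate for any tumor library. From the step that 1 read is worth in each library, the tumor libraries held about 26200000 to 39800000 reads in WT hosts and 42200000 to 78300000 in IL-6 KO hosts, and the stroma libraries held about 11900000 to 41300000. In stroma most of them fell on a few non-coding RNAs. Rn7s1, a 7SL RNA gene, took 19.2% to 50.1% of the summed normalized counts in WT stroma and 71.5% to 79.0% in 3 IL-6 KO libraries, and CT010467.1 took 61.5% in IL-6 KO replicate 4. The 10 genes together therefore rested on about 88537 to 262756 reads per tumor library, 5497 to 16445 per WT stroma library and 1601 to 5948 per IL-6 KO stroma library. All 12 B-lineage markers were found in tumor, with a summed level of 151742 to 175292 normalized counts against 569 to 1612 in stroma. Among the marker lists, the erythroid and mature neutrophil ones had the highest sums in stroma (54009 to 226217 and 7945 to 33936 normalized counts). Of the 8 mesenchymal and endothelial markers, 5 were found there, with a summed level of 172 to 1673. Of these, Col1a1 (73.2 to 1517), Col1a2, Pecam1 and Kitl were above 0 in every stroma library and Kdr was at 0 in 4 of 8, and Cxcl12, Lepr and Cdh5 were not among the genes of the table. Fewer cells of a type and less RNA per cell cannot be told apart in such sorted bulk samples.

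In tumor, Calr had the highest level of the 10 per kilobase of its longest transcript, at 11364 ± 648 normalized counts per kilobase (SD, n = 4) in WT hosts and 14786 ± 1618 in IL-6 KO hosts. Canx followed at 7012 ± 115 in WT hosts, then Hsp90b1 at 6248 ± 206, Hspa5 at 5205 ± 474, Pdia3 at 4947 ± 410, Pdia6 at 3921 ± 328, Sdf2l1 at 2989 ± 318, Pdia4 at 2589 (2456 to 2682), Hyou1 at 2229 ± 200 and Dnajb9 at 119.5 ± 23.4. Along this order the libraries of Hspa5 and Pdia3 overlapped, as did those of Pdia4 and Hyou1, and the other neighbours did not. Calr kept its first place, and Dnajb9 its last, when levels were divided by the mean length of the protein-coding transcripts, and only 4 of the 10 genes kept their place. In IL-6 KO tumor Pdia3 stood at place 7 and not 5, with 3715 ± 221 normalized counts per kilobase.

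In stroma the order was less sharp. Calr (452 ± 54 normalized counts per kilobase, SD, n = 4) and Hsp90b1 (448 ± 74) led in WT hosts and their libraries overlapped, with Hspa5 (330 ± 68) and Canx (227 ± 66) next, each overlapping its neighbour. Pdia4 was last there at 13.4 ± 2.1. Within their own tables, Calr lay between percentiles 98.5 and 98.9 of all genes per kilobase in the tumor libraries, and between 92.7 and 96.9 in the stroma libraries. Sdf2l1 lay between percentiles 94.9 and 96.2 in tumor and between 13.4 and 59.2 in stroma.

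Of the lectin chaperones, both rose in leukemic cells from IL-6 KO hosts. Calr (chromosome 8, 84841850 to 84846934, GRCm38) measured 26266, 24594, 22959.9 and 25453 normalized counts in WT tumor replicates 1 to 4 and 34328, 27051, 33309 and 34486 in IL-6 KO tumor. Every IL-6 KO library lay above every WT library, although replicate 2 stood well below the other IL-6 KO libraries. The log2 fold change, IL-6 KO over WT, was 0.37 (SE 0.09, 95% confidence interval 0.18 to 0.57), with an adjusted p of 0.0164 in limma over the 14493 genes tested. Canx (chromosome 11, 50293961 to 50325673) measured 30607, 30169, 29449 and 29844 normalized counts in WT tumor and 32924, 35494, 32561 and 34002 in IL-6 KO tumor. Its groups did not overlap either, but the step between them was small, with a log2 fold change of 0.17 (SE 0.05, adjusted p = 0.0485 in limma). The call for Canx was lost under 5 of 11 other settings and in 7 of 8 fits that left out 1 library, with quantile normalization among them (log2 fold change 0.08). Removing the trends with GC content and transcript length moved it the other way, to 0.41 (adjusted p = 0.00546 in limma, and 0.0194 with the replicate number as a block). That for Calr held under all 11 of these settings and was lost without WT replicate 3, IL-6 KO replicate 1 or IL-6 KO replicate 4 (adjusted p = 0.0505, 0.0514 and 0.0528 in limma).

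Pdia3, which encodes ERp57, the disulfide isomerase that works on glycoproteins held by calnexin and calreticulin, fell. It measured 13389, 15379.6, 13151 and 12897 normalized counts in WT tumor and 9739.8, 9858, 11051 and 10515 in IL-6 KO tumor, so that the groups were well apart. The log2 fold change was -0.41 (SE 0.07, 95% confidence interval -0.58 to -0.25, adjusted p = 0.00631 in limma), and the call held under each of these settings and in every fit without 1 library. The ratio of Calr to Pdia3 in a library, a measure chosen after the values were seen and given with no test, was 1.60 to 1.97 in WT tumor and 2.74 to 3.52 in IL-6 KO tumor. In stroma it ran from 2.56 to 4.12 in WT hosts and from 1.53 to 4.68 in IL-6 KO hosts, and these groups overlapped.

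Of the BiP system, the chaperone, its nucleotide exchange factor and a further partner rose. Hspa5 measured 18074, 18359, 18301 and 21715 normalized counts in WT tumor and 22761, 20741, 26723 and 26703 in IL-6 KO tumor. WT replicate 4 and IL-6 KO replicate 2 crossed, so this was the member called with overlapping groups (log2 fold change 0.34, SE 0.10, adjusted p = 0.0379 in limma). The call was lost under quantile normalization (adjusted p = 0.161) and without a variance trend (0.0818), and in 6 of 8 fits that left out 1 library.

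Hyou1, the large Hsp70-related protein that exchanges nucleotide on BiP, measured 11147, 10289, 10174 and 12301 normalized counts in WT tumor and 15372, 13702, 14607 and 14647 in IL-6 KO tumor. The lowest IL-6 KO library was above the highest WT library, and the log2 fold change was 0.41 (SE 0.07, 95% confidence interval 0.25 to 0.58, adjusted p = 0.00626 in limma), with the call kept under all of these settings and fits without 1 library. Sdf2l1, an ER-resident protein found in complexes with ER DnaJ co-chaperones and BiP, measured 3773, 3030.4, 3043 and 3402 normalized counts in WT tumor and 4347, 4277, 4083 and 4452 in IL-6 KO tumor. These groups did not overlap (log2 fold change 0.38, SE 0.08, adjusted p = 0.0129 in limma), and the call was lost when the trend of each library with GC content and transcript length was removed (log2 fold change 0.20, adjusted p = 0.110). Dnajb9 (ERdj4), a DnaJ co-chaperone of BiP induced by XBP1, had a value below 0 and did not pass the test. It measured 251, 370.1, 307 and 248 normalized counts in WT tumor and 194, 189, 253 and 238 in IL-6 KO tumor, with overlap, and its log2 fold change was -0.42 (SE 0.17, 95% confidence interval -0.79 to -0.04, adjusted p = 0.105 in limma). With GC and length trends removed it was -0.16 (adjusted p = 0.490).

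GRP94 and the remaining disulfide isomerases did not pass the threshold. Hsp90b1 measured 20620.2, 20642, 19232 and 20027 normalized counts in WT tumor and 21869, 22658, 22625 and 21344 in IL-6 KO tumor. All IL-6 KO libraries were above all WT libraries, by a small step (log2 fold change 0.14, SE 0.05, adjusted p = 0.0974 in limma), and the gene was called once GC and length trends were removed (log2 fold change 0.35, adjusted p = 0.00918). Pdia6, which also acts on the IRE1 and PERK sensors, measured 9538, 8367, 7856 and 8351 normalized counts in WT tumor and 10513, 8585, 10479 and 10531 in IL-6 KO tumor. In 3 of the IL-6 KO libraries it was above every WT library, and replicate 2 was not (log2 fold change 0.23, SE 0.09, adjusted p = 0.0900 in limma). Without that library the gene was called (log2 fold change 0.30, adjusted p = 0.0144). Pdia4 (ERp72) measured 5891 to 6435 normalized counts in WT tumor and 5660.5 to 6842 in IL-6 KO tumor, with a log2 fold change of 0.06 and a 95% confidence interval of -0.11 to 0.22 (adjusted p = 0.634 in limma).

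**Figure D1:**
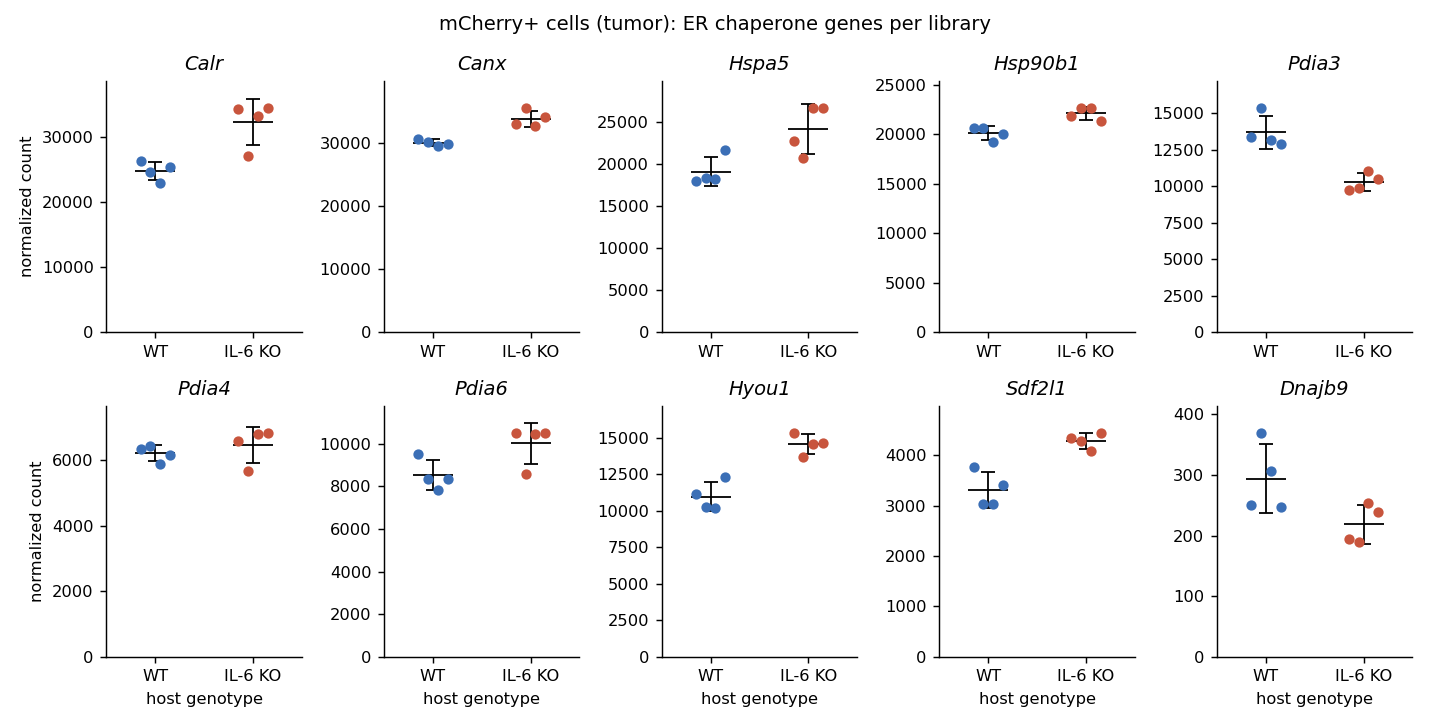
Normalized counts of the 10 ER chaperone genes in each tumor library (points, vertical axes from 0), by host genotype, with the mean as a wide bar and the SD (n = 4) as whiskers. Pdia3 is the gene whose IL-6 KO libraries all lie below the WT libraries, and IL-6 KO replicate 2 is the low point for Calr and Pdia6.

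Counted together, 6 of the 10 genes passed an adjusted p of 0.05 in tumor, where 19.8% of all genes tested did. Of these, 5 were higher in IL-6 KO hosts (10.6% of all genes) and 1 was lower (9.16%). The groups did not overlap in 5 genes that were higher (13.6% of all genes) and 1 that was lower (12.0%), and 9 of the 10 had an unadjusted p under 0.05 (35.1%). The median log2 fold change of the 10 was 0.20, against -0.01 over all genes. Across the 11 settings 4 to 7 of the 10 were called. Without WT replicate 3, IL-6 KO replicate 1 or IL-6 KO replicate 4, 3 were called.

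The deposited scale sets the direction of the smaller differences. Rn7s1 took 3.40% to 4.11% of the summed normalized counts in WT tumor and 5.40% to 6.24% in IL-6 KO tumor. Gm42418 took 13.9% in IL-6 KO replicate 2 against 2.96% to 4.56% in the other libraries. Gm26917 took more than Rn7s1 or Gm42418 in every tumor library. Its share was 13.1% to 21.2% in WT tumor and 20.02% to 22.7% in IL-6 KO tumor, with overlap. The summed level of the 10 genes was 130364 to 140410 normalized counts in WT tumor and 148216 to 163762 in IL-6 KO tumor. As a share of everything in the library it was 0.314% to 0.353% and 0.267% to 0.341%, which overlap. Scaling each library to its total, a setting added after the values were seen, put the median gene at a log2 fold change of -0.28, and the fold changes of Canx, Hsp90b1, Pdia4 and Pdia6 then fell below 0 while Calr, Hspa5, Hyou1 and Sdf2l1 stayed above it without a call. Only Pdia3 (log2 fold change -0.68) and Dnajb9 (-0.69) were called, both lower, and over all genes 257 were called higher and 3464 lower, against 1542 and 1328 on the deposited scale. With the 20 largest genes left out of the total, the median gene was at -0.07 and Calr, Hyou1 and Sdf2l1 were called higher and Pdia3 lower, with 1026 genes called higher and 1729 lower in all. The rises are thus relative to the median gene, and the fall of Pdia3 was called on each scale.

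Other measures moved with the genotype in tumor. The summed level of the 12 mature neutrophil markers was 4706 to 5314 normalized counts in WT tumor and 7222 to 17767 in IL-6 KO tumor, and that of the 6 neutrophil precursor markers 319 to 461 and 874 to 1893. Tumor libraries of IL-6 KO hosts were also the deeper ones by the estimate above, without overlap. The 12 B-lineage markers summed to 151742 to 157184 normalized counts in WT tumor and 164180 to 175292 in IL-6 KO tumor. Of them, Ebf1 was lower in every IL-6 KO library than in any WT library. The part of these measures in the results was not tested. IL-6 KO replicate 3 had the lowest mature neutrophil sum of its group (7222), which was still above every WT library. It held Calr at 33309, Hyou1 at 14607 and Pdia3 at 11051 normalized counts, the last being the highest Pdia3 value of its group.

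In stroma none of the 10 genes was called. None passed an adjusted p of 0.05 in limma over 12202 genes, of which 1 did (0.00820%), and none had an unadjusted p under 0.05 (9.15% of all genes). The libraries of one genotype also spread more widely: the median residual SD of the 10 on the log2 scale was 0.54 in stroma and 0.11 in tumor, against 0.86 and 0.21 over all genes. Calr measured 1078, 994, 819 and 1056 normalized counts in the WT libraries and 598, 956, 850.1 and 700.5 in the IL-6 KO libraries. The groups overlapped, and the log2 fold change of -0.36 had a 95% confidence interval of -0.98 to 0.26 (adjusted p = 0.723 in limma), which holds both no change and a decrease. Whether this differs from the rise in tumor was not tested, and each table was fitted alone. Scaling to the library total, where Rn7s1 and CT010467.1 weigh heavily, put the median gene of stroma at a log2 fold change of -1.67. With that scaling 6 of the 10 genes were called lower, where 6340 of all 12202 genes were called, 6332 of them lower, a like share. With the 20 largest genes left out of that total, 0 of the 10 were called.

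Single libraries set several stroma values. Canx measured 832, 1385, 898 and 766 normalized counts in the WT libraries and 1328, 832, 5804 and 742 in those of IL-6 KO hosts. The high library, IL-6 KO replicate 3, also had the highest erythroid sum (226217), and without it the log2 fold change went from 0.65 to -0.01. Dnajb9 was at 99.7, 3.61, 1.24 and 55.3 normalized counts in the WT libraries and 0, 6.44, 185 and 19.6 in the IL-6 KO libraries, a scatter wider than any difference between the groups (95% confidence interval of the log2 fold change -3.75 to 3.23). Pdia4 was at 33.7, 28.8, 27.8 and 38.5 normalized counts in the WT libraries and 350.3, 219, 25.9 and 25.5 in the IL-6 KO libraries, high in 2 libraries and just under the WT range in the others (log2 fold change 1.39, SE 0.83, adjusted p = 0.623 in limma).

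The other members of the stroma table overlapped between genotypes as well. Hspa5 measured 956 to 1546 normalized counts in WT stroma and 805 to 1299.8 in IL-6 KO stroma, and Hsp90b1 1179 to 1760.0 and 1337 to 2239. Pdia3 measured 261 to 319 and 204 to 391, with a log2 fold change of -0.16 (95% confidence interval -0.90 to 0.58). Pdia6 and Hyou1 had the smallest unadjusted p of the 10. Pdia6 measured 181, 249, 162 and 119.5 normalized counts in the WT libraries and 143, 75.2, 66.6 and 123 in the IL-6 KO libraries (log2 fold change -0.82, adjusted p = 0.583 in limma). Hyou1 measured 952, 619.7, 308 and 356 and then 233, 319, 275 and 417 (log2 fold change -0.73, adjusted p = 0.603), with 2 WT libraries above all the rest. Sdf2l1 was low, at 5.12 to 23.5 and 20.9 to 46.1 normalized counts, about 6 to 48 reads a library.

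**Figure D2:**
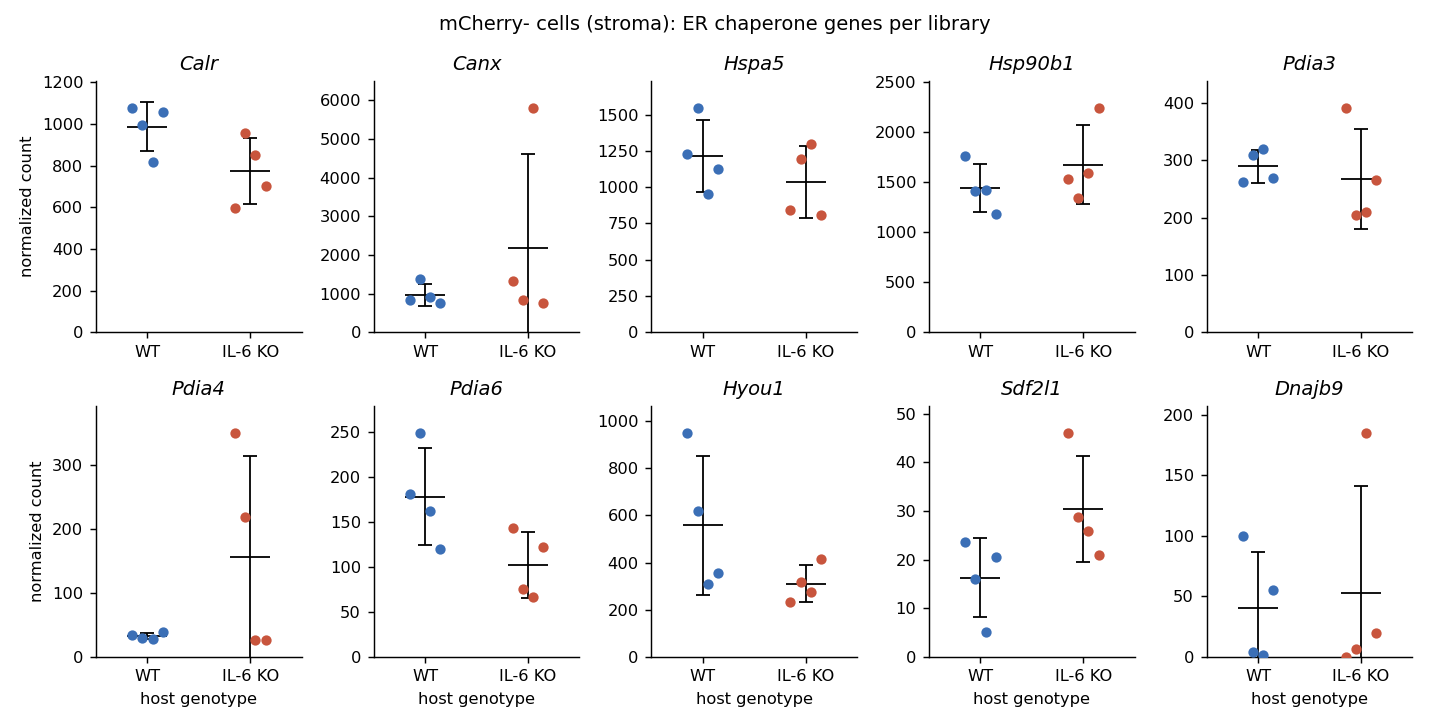
Normalized counts of the 10 ER chaperone genes in each stroma library (points, vertical axes from 0), by host genotype, with the mean as a wide bar and the SD (n = 4) as whiskers. The genotypes overlap for every gene, and single libraries stand far above the rest for Canx and Dnajb9 in IL-6 KO hosts.

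**Figure D3:**
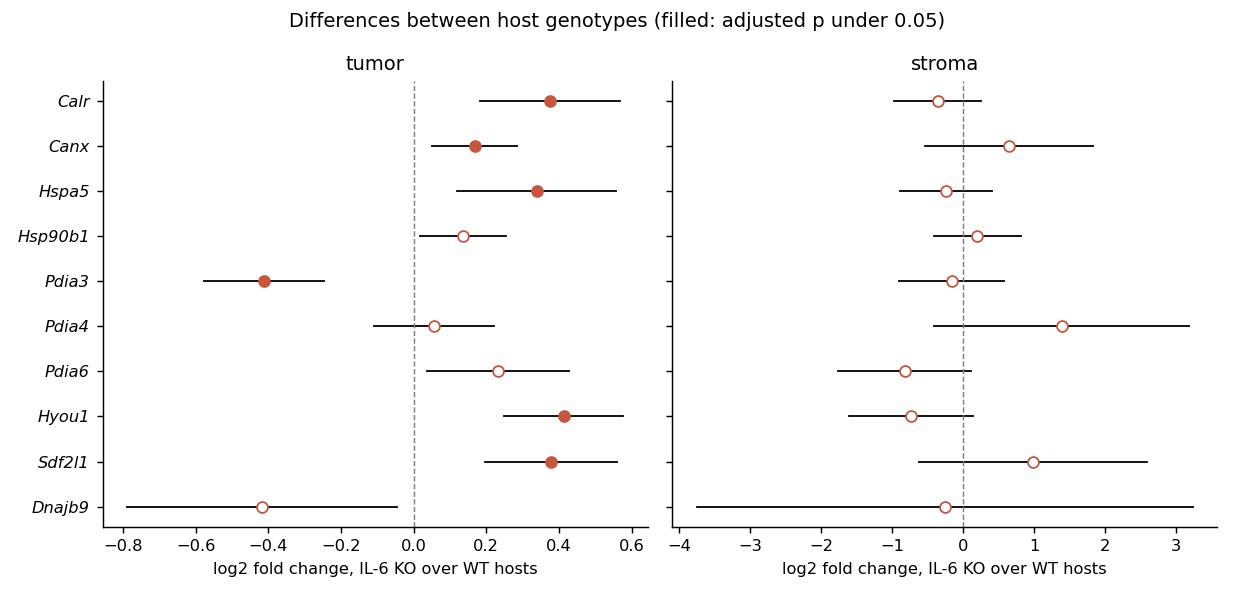
Log2 fold change (IL-6 KO over WT hosts, points) with its 95% confidence interval (lines) in limma for the 10 genes in tumor and in stroma; filled points passed an adjusted p of 0.05, and the horizontal scales of the panels differ. In tumor 5 genes lie right of 0 and Pdia3 left of it as filled points, and in stroma every interval spans 0.

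Because a gene's share of the 10 summed together does not depend on how a table was scaled, shares were set side by side across compartments, as a description. In WT hosts, Pdia4 made up 4.53% of the sum in tumor and 0.575% in stroma, and Sdf2l1 2.41% and 0.281%. Canx, Pdia3 and Pdia6 also took more of the sum in every tumor library than in any stroma library (21.9% against 16.9%, 10.0% against 5.16% and 6.22% against 3.08%). Hspa5 (13.9% in tumor and 21.1% in stroma) and Hsp90b1 (14.7% and 25.4%) went the other way. So 5 genes were higher in tumor without overlap (9.37% of all genes in both tables, each over the same sum) and 2 were lower (53.6%). The shares of the 10 add up to the whole, so a rise in some goes with a fall in others. Other genes over this sum are not bound in that way and move with the sum itself. Their percentages, here and in the comparisons of shares that follow, are therefore not a like baseline for the 10. Calr held a like share in both, 18.1% and 17.4%.

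In IL-6 KO hosts 3 genes (Pdia6, Hyou1 and Sdf2l1) had higher shares in tumor without overlap (7.04% of all genes) and Hsp90b1 a lower one (45.6%). Within tumor, the share of Pdia3 was 10.0% in WT hosts and 6.50% in IL-6 KO hosts, and those of Pdia4 and Dnajb9 were lower too without overlap (26.0% of all genes). The share of Hyou1 was higher, at 8.94% to 9.69% against 7.48% to 8.76% (4.20% of all genes). Calr went from 18.1% to 20.4% of the sum, with IL-6 KO replicate 2 at 18.3%, inside the WT range. No member's share separated the genotypes in stroma, where 0.705% of all genes were higher and 4.63% lower without overlap.

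**Figure D4:**
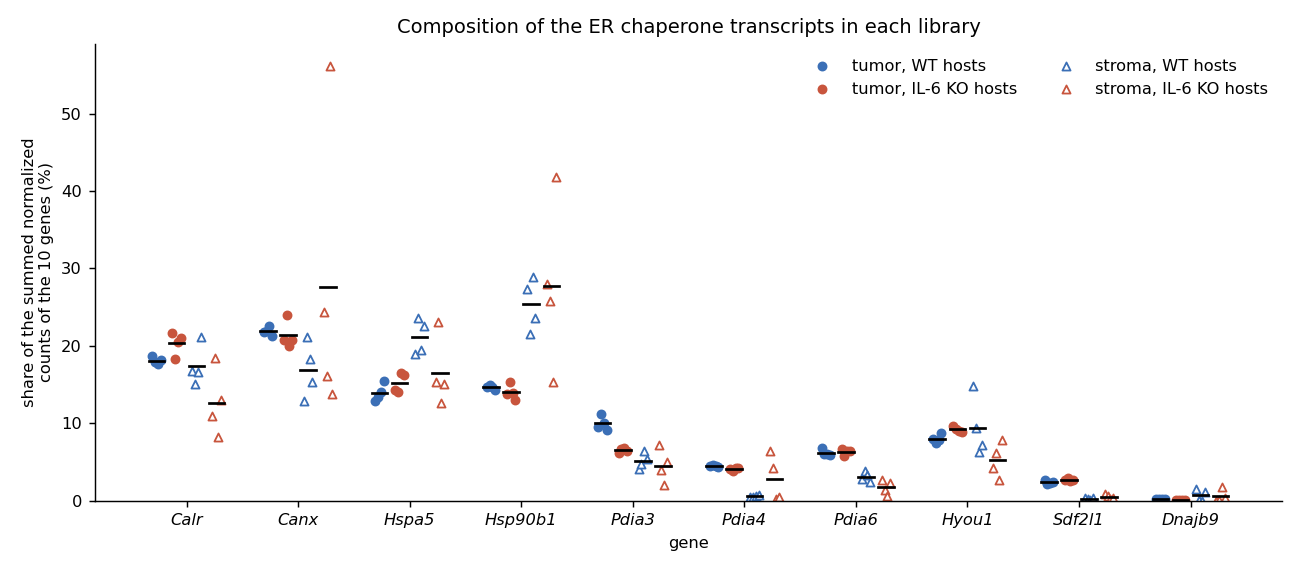
Share of each gene in the summed normalized counts of the 10 ER chaperone genes (percent, vertical axis from 0) in each of the 16 libraries, with bars at the group means; filled circles are tumor, open triangles stroma, and color gives the host genotype. Pdia3, Pdia4, Pdia6 and Sdf2l1 take more of the sum in WT tumor than in WT stroma, and 1 IL-6 KO stroma library has over 50% Canx.

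Genes that tracked Calr were ranked by the SD of their log2 ratio to it over the 8 libraries of a table, among genes with a mean of at least 50. In tumor the closest were Steap3, Entpd6, Wdr6, Akr1a1 and Dpp3, with SDs of 0.05 against a median of 0.30 over 11237 genes. The nearest members were Pdia6 at rank 128 (SD 0.09), Hyou1 at 198 (0.10), Hspa5 at 448 (0.12) and Sdf2l1 at 519 (0.12). Canx and Hsp90b1 stood at ranks 1845 and 1866, and Pdia3 (8580) and Dnajb9 (9163) were farther from Calr than the median gene. In stroma the closest were Tprgl, Optn, Atg4a, Cdkn1b and Rpl38, whose SDs of 0.07 to 0.14 compare with a median of 0.79 over 8076 genes, and Hspa5 stood at rank 37 (0.21). The 8 libraries share their genotype groups and, in tumor, differ in estimated depth by genotype, so these ranks describe likeness only.

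Across the rest of the pathway in tumor, 27 of 124 other ER genes tested passed, 16 of them higher and 11 lower, with a median log2 fold change of 0.09. That share is close to the 19.8% of all genes called, so the genes below are described one by one and not as a change of the pathway. Among 18 other ER chaperones and co-chaperones, 3 rose and 1 fell. Cnpy3, a co-chaperone of GRP94 for Toll-like receptors, measured 1469 to 1783 normalized counts in WT tumor and 2158 to 2417 in IL-6 KO tumor (log2 fold change 0.54, adjusted p = 0.00371 in limma). Creld2 and Manf, a pair of ER-resident proteins induced by ER stress, rose by 0.46 (adjusted p = 0.0103) and 0.27 (adjusted p = 0.0306) on the log2 scale, while Dnajc10, the disulfide-reducing ERdj5, fell by 0.25 (adjusted p = 0.0384). Of 15 other oxidoreductases, Erp29 (0.36, adjusted p = 0.0115) and Txndc5 (0.28, adjusted p = 0.0159) rose and the median was -0.07. The calls of Dnajc10 and Txndc5 were lost when GC and length trends were removed (adjusted p = 0.341 and 0.0784). That of Manf was lost under 4 of 11 settings (adjusted p up to 0.0772), and those of Manf and Dnajc10 each in 6 of 8 fits without 1 library.

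The calnexin cycle was split. Of 6 enzymes that trim or check its glycans, the glucosidases Mogs (log2 fold change 0.45, adjusted p = 0.00370 in limma) and Ganab (0.36, adjusted p = 0.0399) rose, and Uggt1, which puts a glucose back on misfolded chains, fell (-0.35, adjusted p = 0.0110). Mogs measured 4323 to 5220.3 normalized counts in WT tumor and 6181 to 6415 in IL-6 KO tumor, and Uggt1 5705 to 6618 and 4522 to 5247. Removing the GC and length trends ended the calls of all these enzymes, with log2 fold changes of 0.25 for Mogs, -0.20 for Uggt1 and 0.36 for Ganab (adjusted p = 0.0852, 0.138 and 0.0678 in limma), so that the value for Ganab stayed as large. The call of Ganab, whose groups overlapped, was lost under 5 of 11 settings and in 6 of 8 fits without 1 library. Of 22 genes of translocation into the ER and N-glycosylation, 5 fell (9.16% of all genes did) and none rose (10.6%), and the 5 called are a share near the 19.8% over all genes. Among them were the translocon-associated subunit Ssr1 (8814, 9433, 7745 and 8367 against 5068, 6095, 6527 and 5924 normalized counts, log2 fold change -0.54, adjusted p = 0.00486), the signal peptidase subunits Spcs1 (-0.56, adjusted p = 0.00721) and Sec11a (-0.51, adjusted p = 0.0127), and Krtcap2, a subunit of the oligosaccharyltransferase (-0.49, adjusted p = 0.0145). Ssr1, Spcs1 and Sec11a were not called with the GC and length trends removed. Of 21 genes of ER-associated degradation, 2 rose and none fell, among them Dnajb14 (0.74, adjusted p = 0.0128), which shares stretches of near-identical sequence with 20 other genes of the table and is uncertain for that reason.

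Among 14 sensors and factors of the unfolded protein response, 2 rose. Atf4, the factor translated downstream of PERK, measured 3594, 3371, 3719 and 3742 normalized counts in WT tumor and 4604, 4508, 4229.9 and 4328 in IL-6 KO tumor (log2 fold change 0.29, adjusted p = 0.0127 in limma), and was not called with GC and length trends removed. Atf6b rose by 0.52 (adjusted p = 0.00880). The main transducers gave values short of the test: Xbp1 0.19 (adjusted p = 0.199), Atf6 0.08 (0.523), Ern1, which encodes IRE1, 0.27 (0.393), Eif2ak3, which encodes PERK, -0.20 (0.375) and Ddit3, which encodes CHOP, 0.25 (0.290). Of 12 genes of ER calcium handling, Itpr3 (0.37, adjusted p = 0.0142) and the calcium pump Atp2a2 (0.29, adjusted p = 0.0448) rose, and the calcium sensor Stim2 fell (-0.63, adjusted p = 0.00931). The groups of Atp2a2 overlapped, and its call was lost under 2 of 11 settings (adjusted p up to 0.135) and in 6 of 8 fits without 1 library.

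Calreticulin and ERp57 also belong to the complex that loads peptides onto MHC class I. Of 6 other genes of that process, Tapbp (tapasin) rose from 2803, 2008, 2409.6 and 3366 normalized counts in WT tumor to 4816, 4878, 4469 and 4381 in IL-6 KO tumor (log2 fold change 0.83, SE 0.14, adjusted p = 0.00461 in limma). Tapbpl rose by 0.33 (adjusted p = 0.0383), with near-identical stretches in 2 other genes that make it uncertain, and the call was lost in 7 of 8 fits without 1 library. B2m, the class I light chain, fell from 8584, 9776, 10308 and 8887 to 6493, 6521, 7658 and 6599 (-0.46, adjusted p = 0.00601), and Erap1, which trims peptides, fell by 0.47 (adjusted p = 0.0115). With GC and length trends removed, B2m (log2 fold change -0.06) and Erap1 (-0.20) were not called. The 11 genes of calreticulin exposure and recognition held 1 rise and 1 fall. Bax rose by 0.77 (adjusted p = 0.0352), with IL-6 KO replicate 2 at 4451 and the rest of that group at 2004 to 2269 normalized counts, and the call was lost in 6 of 8 fits without 1 library. Eif2s1, the translation factor that PERK phosphorylates, fell by 0.35 (adjusted p = 0.0479), a call lost with GC and length trends removed (adjusted p = 0.451) and in 6 of 8 fits without 1 library. Cd47, the signal that opposes phagocytosis, gave -0.04 (95% confidence interval -0.27 to 0.18), and Lrp1, a receptor for calreticulin, 0.34 (adjusted p = 0.231).

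**Figure D5:**
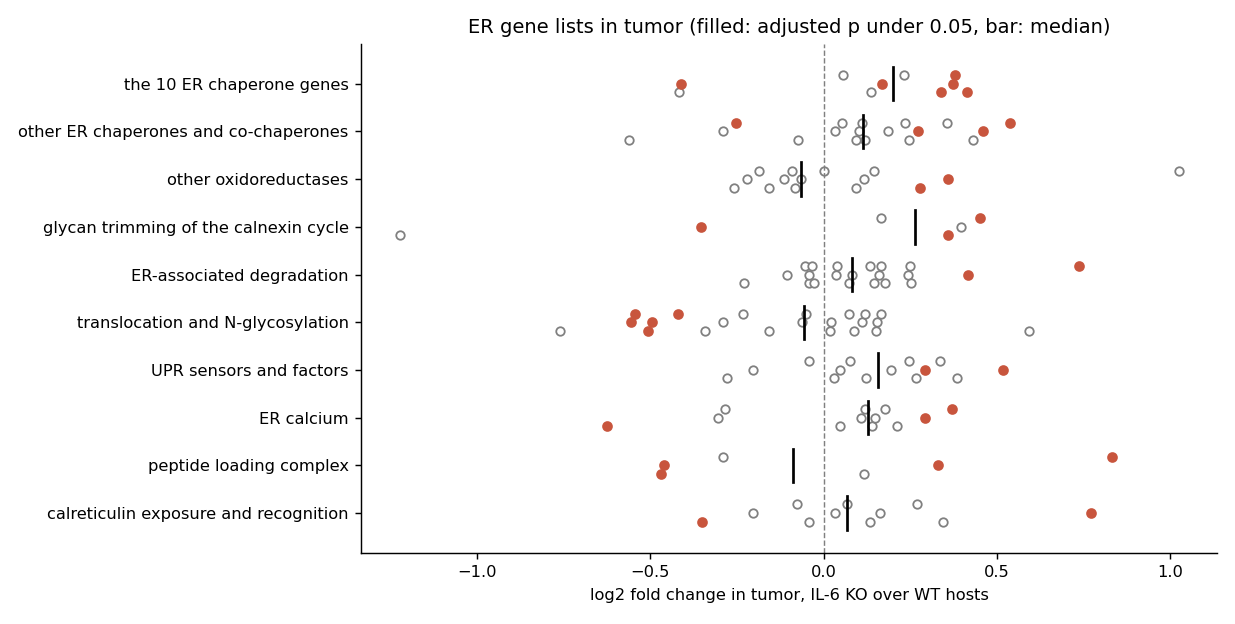
Log2 fold change in tumor (horizontal axis, IL-6 KO over WT hosts) of each gene tested in the 10 ER chaperone genes and 9 lists of other ER genes; filled points passed an adjusted p of 0.05 in limma and bars mark each list's median. The chaperone genes have a median of 0.20, and the 5 filled genes of translocation and N-glycosylation all lie left of 0.

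The genes that carry the ER stress response element in their promoter were read as a set of their own, as a description. Of 37 such symbols 13 were tested in tumor, the 5 members among them. All 5 members, whose values are given above, and 7 of the 8 others had a log2 fold change above 0, as did 7149 of all 14493 genes. Beside the members, Creld2 and Hnrnpa3 (log2 fold change 0.20, adjusted p = 0.0361 in limma) were called, both higher. Of the 13, 5 were called higher, against 10.6% of all genes, and their median was 0.20. Of these 5, 3 are members already counted above, and Creld2 was counted among the other ER chaperones and co-chaperones. The calls of Canx and Hspa5 were lost in most fits without 1 library. The signs above are on the deposited scale. With libraries scaled to their total, Canx (log2 fold change -0.11), Hsp90b1 (-0.14) and Pdia6 (-0.042) were below 0. Calr (0.10) and Hspa5 (0.065) stayed above it without a call. In stroma 13 were tested as well, with Adcy3 among them and not Tdrd9, and they had a median of -0.16 with 0 called in limma. There 3 of the 13 had a log2 fold change above 0, as did 6031 of all 12202 genes.

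None of the 125 other ER genes tested in stroma passed in limma, and 14 had an unadjusted p under 0.05. The DnaJ protein Dnajc1 had the smallest p among them, at 67.8 ± 22.7 normalized counts in WT stroma and 303 ± 74 in IL-6 KO stroma (SD, n = 4), a log2 fold change of 2.19 with an adjusted p of 0.298. Xbp1 measured 196, 313, 433 and 425 normalized counts in the WT libraries and 664, 854, 458 and 616 in those of IL-6 KO hosts, with no overlap (log2 fold change 0.95, adjusted p = 0.461 in limma). B2m was lower in every IL-6 KO library (100 to 214 against 301 to 550.5 normalized counts, log2 fold change -1.46, adjusted p = 0.324). Groups without overlap were 2.54% of all genes for higher and 3.25% for lower values in IL-6 KO stroma, so these values are given without a direction being called.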

How the data were processed

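RNA of 16 libraries was sequenced (rRNA depletion, directional kit, single-end reads). Per the labels and the study's methods, the authors quantified reads with Salmon 1.3.0 on mm10, correcting for GC and sequence bias, and deposited for each compartment the DESeq2 1.28.1 normalized counts, a signal divided by library factors that is no longer a read count. In each library the low values that recur lie on whole steps of 0.604 to 1.58 (tumor) or 0.399 to 3.41 (stroma) normalized counts, from which depth was estimated, but 2.80% to 5.12% of all values do, so no count test was run. The authors' tables of fold changes and p-values were not used.

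Log2(normalized count + 1) was tested with limma 3.58.1 (R 4.3.3), with a variance trend and genotype as the only term, on genes with a mean over 10, two-sided, with Benjamini-Hochberg adjustment over all genes tested and a threshold of 0.05. Each table was fitted alone, and p-values measure the spread between these libraries, which may be technical. Fold changes understate low genes. Named genes were the 10 members, up to 4 per ER list and compartment by adjusted p (with none called, up to 2 by p), 8 genes always named, and the 5 nearest to Calr per table. Of these, 1 gene is not reported here by name. Hnrnpa3 and the non-coding RNAs were named after their values were seen. The members and lists were chosen with earlier results of these data known. Gene positions, lengths and GC content came from GENCODE vM21. Near-identical copies were sought with BLAST 2.17.0 (97% identity or more over 150 nucleotides of a second gene's transcript), and promoters came from RefSeq. The alternatives were pseudocounts of 0.5 and 5, no filter or a mean over 50, quantile normalization, median centring, array weights, no variance trend, the replicate number as a block, removal of GC and length trends, and each library left out. Scaling to the library total was added after the values were seen. The fits were tested on simulated data. Python 3.11.15, pandas 2.3.3 and matplotlib 3.10.9 were used.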

Additional observations from a re-analysis of the deposited data

Results flagged for a closer look

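Over the 40 sets of 4 libraries (10 genes in 4 groups), 5 held a library that stood apart from the other 3 by Dixon's ratio at its 95% critical value. Chance alone flags about 1 set in 20. In tumor of IL-6 KO hosts, replicate 2 was low for both Calr (27051 normalized counts, ratio 0.842) and Pdia6 (8585). That library also held Gm42418 at 13.9% of its summed normalized counts and Bax at 4451 normalized counts. In WT tumor, replicate 4 was high for Hspa5 (21715). In IL-6 KO stroma, replicate 3 was high for Canx (5804) and Dnajb9 (185), and it had the highest erythroid and the lowest mature neutrophil sum of its group. No cause was tested.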

How the results depend on the processing

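The call for Pdia3 held in tumor under every alternative and that for Hyou1 under every one except scaling to the library total. Of the 10 genes, 4 to 7 were called in tumor over 11 other settings and 3 to 7 with 1 library left out, and 2 with libraries scaled to their total. In stroma 0 were called under the same settings and leave-outs and 6 with that scaling, where 82 other ER genes were called against 0. Over all genes of stroma, 6340 of 12202 were called with that scaling. Other ER genes called in tumor numbered 44 with array weights, against 27. Over all genes in tumor 1733 to 4153 were called under those settings and 2870 in the fit reported. The cause was not tested.

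Replicate numbers did not pair the tumor libraries: deviations of same-numbered libraries correlated at -0.019 to 0 in tumor and -0.029 to 0.126 in stroma, and no tumor library correlated best with its own number. With the replicate block, Canx lost its call in tumor (adjusted p = 0.0893 in limma), and the other 5 calls held.

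Shares that separated the genotypes in tumor numbered 4 to 7 with 1 library left out. In stroma they numbered 0 to 2, and 1 by centred log ratios. By the mean length of coding transcripts 4 genes kept their place per kilobase in WT tumor, 4 in IL-6 KO tumor and 5 in IL-6 KO stroma.

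Signs of uncalled log2 fold changes turned as follows. In tumor, Pdia4 became -0.0076 under quantile normalization and Cd47 0.035 with array weights, 0.21 with GC and length trends removed (also with the replicate block) and -0.084 to 0.062 with 1 library left out (0.062 without IL-6 KO replicate 2). In stroma, Dnajb9 became 0.0045 under quantile normalization and 0.0035 with GC and length trends removed (also with the block), and -1.54 to 0.97 with 1 library left out, above 0 without WT replicate 1 or 4 or IL-6 KO replicate 1 or 2. Canx ranged from -0.012 (without IL-6 KO replicate 3) to 0.98 with 1 library left out, and Lrp1 became 0.0041 and 0.038 without WT replicate 3 and IL-6 KO replicate 3.

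Scaled to the library total, values in tumor were -0.0001 for Manf, -0.11 for Canx, -0.14 for Hsp90b1, -0.22 for Pdia4, -0.042 for Pdia6, -0.080 for Xbp1, -0.20 for Atf6, -0.0048 for Ern1 and -0.026 for Ddit3, and Pdia4 was -0.012 with the 20 largest genes left out. In stroma they were -1.09 for Uggt1, -0.88 for Edem1, -0.76 for Xbp1, -1.05 for Itpr2, -0.0003 for Tapbp, -1.07 for Canx, -1.52 for Hsp90b1, -0.29 for Pdia4, -0.66 for Sdf2l1, -1.37 for Ern1 and -1.04 for Eif2ak3.

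The filter on a mean over 50 left Sdf2l1 and Dnajb9 out of stroma. The 10 genes rested on 1601 to 16445 reads per stroma library, and the part of depth in the wide stroma intervals was not tested.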
